A study of Mus musculus with 4 samples.

Results

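The Zbtb genes encode the BTB zinc finger family of transcription factors. Members were taken by symbol, as every Entrez gene of the deposited H3K27me3 table whose mouse symbol is Zbtb followed by a number and, in some cases, letters or a further number. This gave 42 of 27095 genes. The rule also took Zbtb8os, which encodes an archease-like factor of tRNA ligation, and Zbtb11os1, a long non-coding RNA gene; neither encodes a BTB zinc finger protein.

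H3K27me3 was measured by Cut&Tag, in which a transposase tethered to an antibody tags the chromatin around the mark. The groups were alveolar macrophages from the lungs of Suz12 cKO chimeras (2 libraries) and of wild-type chimeras (2 libraries), on the C57BL/6 background. In both groups the hosts were lethally irradiated C57BL/6-Ly5.1 mice, and the marrow they received was 90% Ly5.2 (Suz12 cKO or wild type) with 10% wild-type Ly5.1, so some cells of wild-type marrow could be present in either. The sources used here do not state the driver of the conditional deletion, the animals' ages or whether the sort separated Ly5.1 from Ly5.2 cells. Each library came from 100000 sorted cells, and the study calls the libraries biological replicates.

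BTB zinc finger proteins join an N-terminal BTB domain, which forms dimers and recruits corepressors such as NCOR and BCOR with histone deacetylases, to C-terminal zinc fingers that bind DNA. Several members fix the fate of blood cells: Zbtb16 (PLZF) directs innate-like lymphocytes, Zbtb7b (Th-POK) directs CD4 T cells, and Zbtb46 marks classical dendritic cells. H3K27me3 is laid down by the Polycomb complex PRC2, of which SUZ12 is a required subunit, and it covers genes that a cell type keeps silent.

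Total counts over gene windows were 3331138 and 3567282 in the Suz12 cKO libraries and 2592297 and 2142175 in the wild-type libraries, so the cKO mean was 1.46 times as large. The Suz12 window held 11 and 10 counts in cKO and 8 and 10 in wild type, too few to check the deletion, and the sources do not state which part of the gene is removed. Values below are in CPM, counts put on a common library size with TMM factors. This scaling takes most windows as unchanged and used no external reference, so a shift shared by all windows would not show. Gained and lost therefore mean relative to the other windows of the table. Levels are compared between genes only in CPM per kb of the deposited window. That window equals the reference gene with 3 kb on each side for 13 of the 42 members and differs from it for the others. The mark does not measure expression, but its level at marker genes bears on the label. At the 12 alveolar macrophage markers the median level was 0.186 CPM per kb in cKO and 0.148 in wild type, against 1.52 and 1.71 for 7 dendritic cell markers, 1.16 and 1.12 for 7 B cell markers, 0.796 and 0.620 for 10 T and NK cell markers, and 1.61 and 1.74 for 9 lung epithelial markers. The summed level of these lists ran from 96.4 to 107 CPM in cKO and from 82.0 to 91.5 CPM in wild type for alveolar macrophage markers, from 560.2 to 577 in cKO and from 510.1 to 548 in wild type for dendritic, from 1241 to 1326 in cKO and from 1217 to 1342 in wild type for B cell, from 421 to 430 in cKO and from 405 to 407 in wild type for T and NK cell, and from 397 to 408 in cKO and from 354 to 423 in wild type for epithelial markers. Of these markers Ms4a1 (B cell) and Plet1 (alveolar macrophage), whose windows other windows cover for 100% and 95.1%, had 0 counts in every library. The lists were mixed. Xcr1, Clec9a, Cd79a, Cd2 and Nkg7 also lay below the alveolar macrophage median in both genotypes. Among alveolar macrophage markers, Marco had 0.490 CPM per kb in cKO and 0.534 in wild type, and Krt79 had 0.769 in cKO and 0.484 in wild type. No member of these lists was called between genotypes by edgeR except Cd28, a T cell costimulator that gained the mark (log2 fold change 1.02). Of all tested genes 6.42% were called in either direction. The 8 tested alveolar macrophage markers had a median log2 fold change of 0.63, beside -0.01 over all tested genes.

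Start regions were found for 37 of the 42 genes in the RefSeq promoter table (build GRCm38.p6, 250 bases before to 50 after a start). Zbtb10, Zbtb16, Zbtb40, Zbtb48 and Zbtb7c have no entry. CpG-dense starts are where PRC2 is known to settle in mammals, so 4 starts are shown, 5′ to 3′, with each CpG in capitals. Zbtb8b and Zbtb46 were among the 5 most marked members, while Zbtb44 and Zbtb18 lay below the median level of tested windows, at percentiles 6.09 and 37.1. The start regions lie at chr4:129440769-129441068 (minus strand) for Zbtb8b, chr2:181424339-181424638 (minus strand) for Zbtb46, chr9:31030394-31030693 (plus strand) for Zbtb44 and chr1:177442101-177442400 (plus strand) for Zbtb18. The Zbtb46 start lies 68.9 kb and the Zbtb8b start 6.15 kb inside the reference gene, so other starts of these genes are not shown.
Zbtb8b: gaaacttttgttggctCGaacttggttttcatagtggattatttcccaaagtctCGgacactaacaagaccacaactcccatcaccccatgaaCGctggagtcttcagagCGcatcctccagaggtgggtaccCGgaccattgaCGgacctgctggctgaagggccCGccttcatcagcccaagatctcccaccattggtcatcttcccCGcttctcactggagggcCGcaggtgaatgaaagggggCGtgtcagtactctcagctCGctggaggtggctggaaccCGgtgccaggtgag
Zbtb46: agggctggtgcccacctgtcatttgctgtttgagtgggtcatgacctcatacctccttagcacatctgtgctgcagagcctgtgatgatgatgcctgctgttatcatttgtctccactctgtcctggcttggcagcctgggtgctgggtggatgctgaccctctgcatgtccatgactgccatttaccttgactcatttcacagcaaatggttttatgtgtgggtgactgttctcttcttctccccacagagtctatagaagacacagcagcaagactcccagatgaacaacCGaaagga
Zbtb44: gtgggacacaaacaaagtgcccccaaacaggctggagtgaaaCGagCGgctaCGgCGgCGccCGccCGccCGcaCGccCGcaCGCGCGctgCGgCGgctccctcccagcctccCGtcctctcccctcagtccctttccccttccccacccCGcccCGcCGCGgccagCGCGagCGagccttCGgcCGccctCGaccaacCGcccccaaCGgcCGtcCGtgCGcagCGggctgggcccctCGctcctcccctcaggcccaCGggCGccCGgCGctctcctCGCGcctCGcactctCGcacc
Zbtb18: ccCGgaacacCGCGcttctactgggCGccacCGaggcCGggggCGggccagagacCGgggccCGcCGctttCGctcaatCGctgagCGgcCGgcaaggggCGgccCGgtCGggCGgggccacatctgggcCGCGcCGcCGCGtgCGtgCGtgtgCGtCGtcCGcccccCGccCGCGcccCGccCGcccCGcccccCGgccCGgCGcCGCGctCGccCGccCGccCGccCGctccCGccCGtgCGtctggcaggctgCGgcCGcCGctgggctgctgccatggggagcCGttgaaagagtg
Zbtb44 and Zbtb18 held 41 and 51 CpG in 300 bases, against 12 for Zbtb8b and 1 for Zbtb46. These 4 are picked genes, so they do not show how CpG content goes with level in the family. The values for all members with a start region stand beside the plot of CpG content and level.

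Most windows of the family had a low average level of H3K27me3 in alveolar macrophages of either genotype. Such an average would dilute a mark confined to a small part of a window. Over all 42 genes the median level was 0.135 CPM per kb in cKO and 0.137 in wild type, against 0.687 and 0.672 over the 16752 windows that passed the count filter. The 42 include members below that filter. The 20 members that passed it had a median of 0.190 in cKO and 0.210 in wild type. A list of 42 housekeeping genes had a lower median, at 0.064 CPM per kb in cKO and 0.080 in wild type. The 5 members of highest mean level, Zbtb8b, Zbtb16, Zbtb7c, Zbtb46 and Zbtb10, held 91.8% and 92.7% of the family's counts in the cKO libraries and 90.4% and 89.4% in the wild-type libraries. Among the other 37 the median was 0.111 and 0.105 CPM per kb in the cKO libraries and 0.112 and 0.133 in the wild-type libraries. Only Zbtb8b and Zbtb16 stood above the 90th percentile of all tested windows (3.45 CPM per kb of mean level), though 0 did when every window was divided by its unshared length. All of the 22 members below the filter had a mean below the median of the tested windows (0.682), which the filter itself favours.

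**Figure D1:**
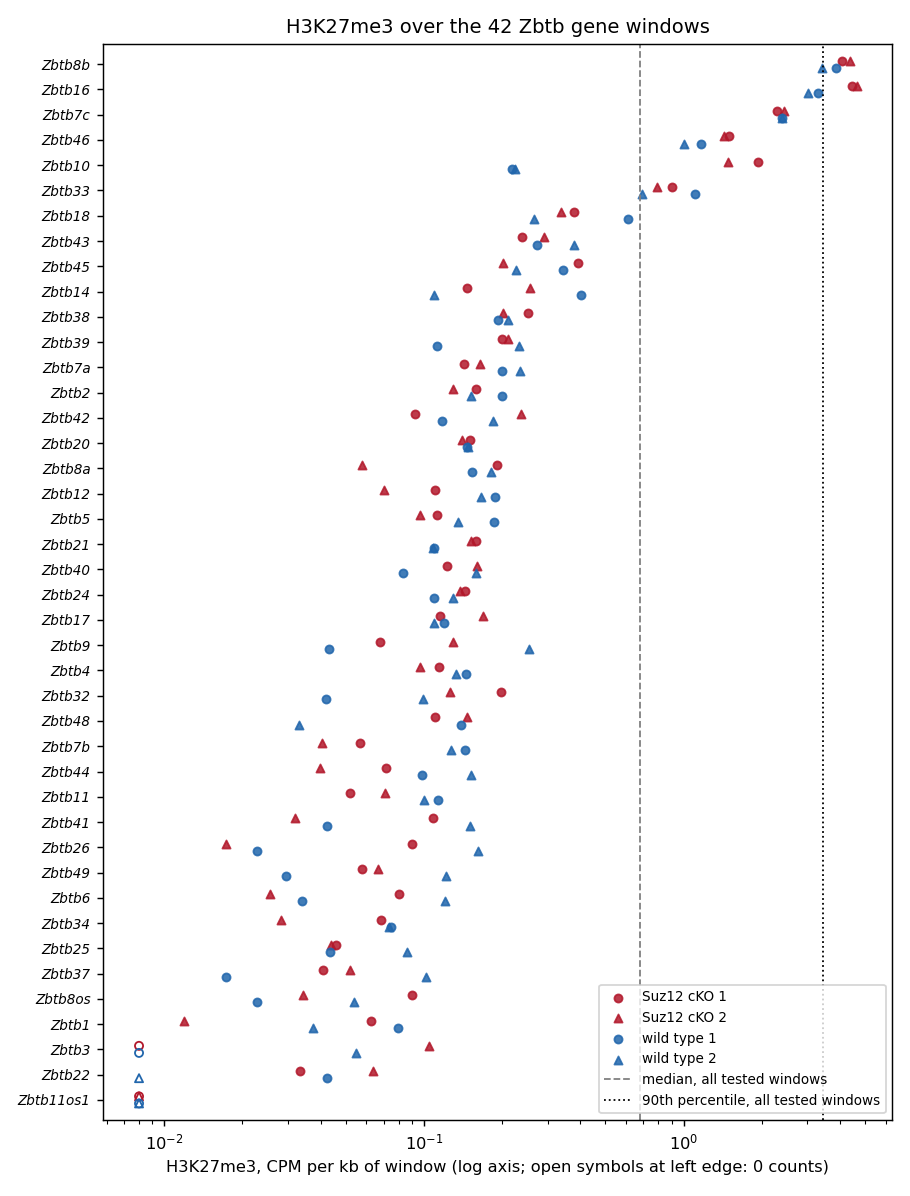
H3K27me3 level of all 42 Zbtb windows in CPM per kb (log axis), 1 row per gene in order of mean level, with 2 Suz12 cKO libraries in red and 2 wild-type libraries in blue. The grey dashed line is the median of all tested windows (0.682) and the dotted line their 90th percentile (3.45). 5 rows at the top hold most of the family's counts, a share that also depends on window length. Among these rows Zbtb10 is the one whose genotypes stand farthest apart.

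Zbtb10, whose human protein is known as a repressor of Sp-family transcription factors, changed most. The gene spans 9250567 to 9285333 of chromosome 3 (mm10), and its window held 78.9 and 60.7 CPM in the cKO libraries, against 8.92 and 9.16 CPM in the wild-type libraries. Both cKO libraries lay far above both wild-type libraries, which were nearly alike. Genotypes did not overlap, in either direction, at 8 of the 20 tested members and at 47.6% of all tested genes. With 2 libraries each, separation alone is therefore common. The log2 fold change was 2.94 ± 0.22 (SE, edgeR quasi-likelihood test, adjusted p = 1.05e-28), at rank 5 of the 16752 tested genes. In raw counts the window held 258 and 208 reads in cKO against 23 and 20 in wild type, and the ratio of library shares was 7.44 with an exact 95% interval of 5.44 to 10.4 that covers counting error only. Per kb the level was 1.94 and 1.49 CPM in cKO and 0.219 and 0.225 in wild type, so the gene stood at percentile 75.9 of tested windows in cKO and at percentile 26.7 in wild type. No other window of the table overlaps it. It was called under all 12 alternatives run, with log2 fold changes of 2.75 to 3.21. In a bulk library, fewer cells with the mark and less of it per cell cannot be told apart. The family was put forward with this gene's result known, so the size of its change is a description of the family's most changed member.

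Zbtb16, the PLZF gene of NKT and innate lymphoid cells that is fused to RARA in some human promyelocytic leukaemias, was second to Zbtb7c in counts over the 4 libraries, with 8557 against 9127. The gene spans 48651797 to 48836225 of chromosome 9, and its window held 839.6 and 871 CPM in the cKO libraries, against 620.1 and 564 CPM in the wild-type libraries. The groups did not overlap, as at 47.6% of all tested genes, and their means stood at 855 ± 21.9 and 592 ± 39.9 CPM (SD, n = 2 each). The log2 fold change was 0.53 ± 0.08 (adjusted p = 1.31e-07), and 67.5% of the 747 gained genes in the table had a larger one. With scaling to housekeeping genes it was 0.82 and was not called (adjusted p = 0.0904). That scaling shifted the median log2 fold change over all genes by 0.28 and rests on 609 and 507 counts in the cKO libraries and 519 and 439 in the wild-type libraries.

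Zbtb46, which marks classical dendritic cells and restrains their activation, gained less and less firmly. The gene spans 181371009 to 181493262 of chromosome 2, and its window held 111 and 107 CPM in the cKO libraries, against 86.9 and 75.1 CPM in the wild-type libraries. The log2 fold change was 0.43 ± 0.13 (adjusted p = 0.0209). It was called in 5 of 12 alternatives, and lost the call without cKO library 1 (adjusted p = 0.235), cKO library 2 (0.198) or wild-type library 2 (0.209), and by DESeq2 (0.189). Its direction was a gain in all 12, at log2 fold changes of 0.34 to 0.71. Other genes' windows overlap 22.3% of it, and its counted window of 74.5 kb is shorter than the reference gene of 122 kb, so its level per kb is uncertain.

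In all, 20 of the 42 members passed the count filter, and 3 of them gained, against 4.46% of all tested genes. Relative to the other windows, none of the 20 was called as lost by edgeR's test, against 1.96% of all tested genes. DESeq2 also called 0 as lost. At an unadjusted p below 0.05 there was 1 with a lower level in cKO, Zbtb44. Calls in either direction made up 15% of the tested members and 6.42% of all tested genes, a difference that rests on Zbtb10, Zbtb16 and Zbtb46. The family was put forward with earlier results of these data known, so this difference is a description, not a test of the family. The median log2 fold change of the 20 was -0.06, beside -0.01 over all tested genes. In simulated counts for this comparison (16119 genes), calls were made at 33.3% of genes given a 1.5-fold change, 55.1% given 2-fold and 75.5% given 3-fold, so many smaller changes would be missed at this depth. The changed genes were drawn from tested windows of any level, while 14 of the 20 members lay below the median level. These rates are therefore not specific to windows as low as most members'.

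**Figure D2:**
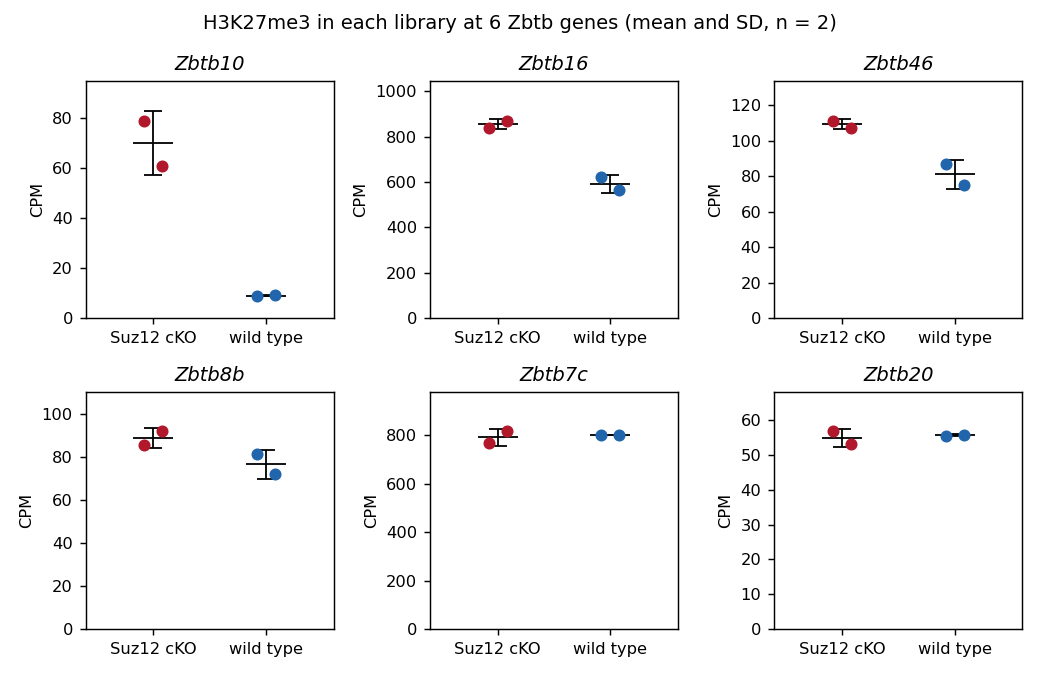
H3K27me3 in CPM at 6 Zbtb genes, 1 panel per gene with its own axis from 0, Suz12 cKO in red to the left and wild type in blue to the right. Points are libraries and bars the mean and SD (n = 2). At Zbtb10, Zbtb16 and Zbtb46 both cKO points lie above both wild-type points, as they do by less at Zbtb8b, while at Zbtb7c and Zbtb20 the cKO points lie on either side of the wild-type ones. Genotypes did not overlap, in either direction, at 47.6% of all tested genes.

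The other strongly marked members were not called. Zbtb8b, on chromosome 4, held 85.6 and 92.0 CPM in cKO, against 81.4 and 71.9 CPM in wild type (log2 fold change 0.21 ± 0.13, adjusted p = 0.424). Both cKO values lay above both wild-type values, without passing the test. Genotypes did not overlap, in either direction, at 47.6% of all tested genes. Its counts gave a ratio of library shares of 1.11 with an exact 95% interval of 0.975 to 1.27 for counting error. Zbtb7c, a paralog of Zbtb7a and Zbtb7b on chromosome 18, held 767 and 817 CPM in cKO, against 803 and 801 CPM in wild type (log2 fold change -0.02 ± 0.08, adjusted p = 0.948). Its wild-type values lay between its cKO values.

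Ratios of counts within a library do not depend on the scaling between libraries. Zbtb16 held 1.09 and 1.07 times the counts of Zbtb7c in the cKO libraries, against 0.772 and 0.704 times in the wild-type libraries. Zbtb10 held 0.103 and 0.0743 times the counts of Zbtb7c in cKO, against 0.0111 and 0.0114 times in wild type, and Zbtb46 held 0.145 and 0.131 times in cKO, against 0.108 and 0.0938 times in wild type. All of these ratios were higher in both cKO libraries than in both wild-type libraries. The ratio of Zbtb20 to Zbtb7c was 0.0741 and 0.0650 in cKO and 0.0691 and 0.0698 in wild type, so it overlapped. Set against Zbtb8b, the ratios of the 3 gained genes were again higher in both cKO libraries: 9.81 and 9.46 in cKO against 7.61 and 7.84 in wild type for Zbtb16, 0.921 and 0.660 in cKO against 0.110 and 0.127 in wild type for Zbtb10, and 1.30 and 1.17 in cKO against 1.07 and 1.04 in wild type for Zbtb46. Zbtb20 set against Zbtb8b was lower in both cKO libraries, at 0.664 and 0.578 in cKO and 0.681 and 0.777 in wild type. Such a ratio shows unequal change between the windows, not which of them changed. The 3 genes were picked as gained from these same counts, and Zbtb7c and Zbtb8b as not called. The higher ratios of the 3 therefore add no independent support to their calls.

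Paralogs and neighbours within the family stood far apart in level. Zbtb8b and Zbtb8a lie 47.7 kb from each other on chromosome 4, yet Zbtb8b had 4.07 and 4.37 CPM per kb in cKO and 3.87 and 3.41 in wild type, while Zbtb8a had 0.191 and 0.0576 in cKO and 0.153 and 0.181 in wild type. The Zbtb8a values rest on 19 and 6 counts in cKO and 12 and 12 in wild type, so the size of the gap is imprecise. In the Zbtb7 group, Zbtb7c stood at 2.29 and 2.44 CPM per kb in cKO and 2.40 and 2.39 in wild type. Zbtb7a, the LRF gene that acts in erythroid and lymphoid fate and in globin silencing, stood at 0.143 and 0.164 in cKO and 0.199 and 0.235 in wild type. Zbtb7b stood at 0.0567 and 0.0406 in cKO and 0.144 and 0.127 in wild type, in a window of which 62.7% overlaps others. Only Zbtb7c of the 3 lay above the median of tested windows.

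The order at the top differed between genotypes. In the cKO libraries Zbtb16 (4.47 and 4.64 CPM per kb) lay above Zbtb8b (4.07 and 4.37), and in the wild-type libraries Zbtb8b (3.87 and 3.41) lay above Zbtb16 (3.30 and 3.004). Next came Zbtb7c in both genotypes. In cKO Zbtb10 followed at 1.94 and 1.49, above Zbtb46 at 1.49 and 1.44 within each library, though the lower Zbtb10 value and the higher Zbtb46 value were alike. In wild type Zbtb46 followed at 1.17 and 1.01, and Zbtb10, at 0.219 and 0.225, lay below Zbtb33, the Kaiso gene whose protein binds methylated DNA, which had 0.900 and 0.793 in cKO and 1.11 and 0.691 in wild type. The Zbtb33 window (48.8% overlapped by others) was not called (log2 fold change -0.11 ± 0.33, adjusted p = 0.914).

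**Figure D3:**
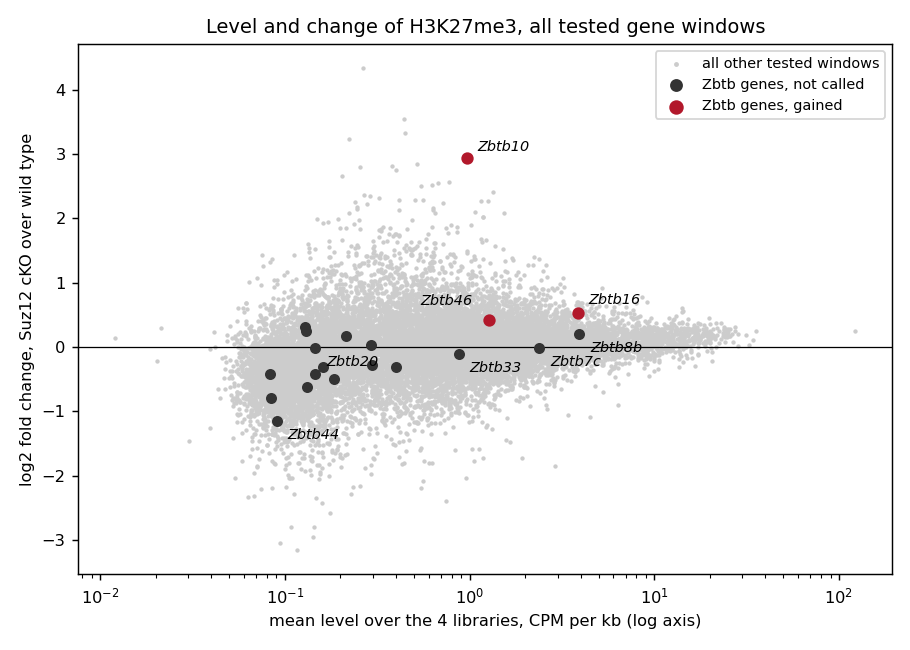
Mean level over the 4 libraries (CPM per kb, log axis) against the log2 fold change of Suz12 cKO over wild type, for all 16752 tested windows in grey, with tested Zbtb genes in black (not called) and red (gained). Zbtb10 stands apart at 2.94, and the members of low level lie mostly below 0, as does the grey cloud there.

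Of the 20 tested members, 14 stood below the median level of all tested windows, and 0 of these were called by edgeR (1, Zbtb44, at an unadjusted p below 0.05, and 0 by DESeq2). Their log2 fold changes were negative in 10 and positive in 4, with a median of -0.31. Windows of low level leaned the same way across the table: 62.2% of the 8376 tested windows below the median level had a negative fold change, with a median of -0.15. The lowest p was that of Zbtb44, with 3.67 and 2.04 CPM in cKO and 5.04 and 7.78 CPM in wild type (log2 fold change -1.15 ± 0.54, unadjusted p = 0.0360, adjusted p = 0.226). Zbtb11 had 2.14 and 2.92 CPM in cKO and 4.65 and 4.12 CPM in wild type (adjusted p = 0.538). Zbtb18, whose protein is a repressor that acts in neuronal development, had 4.59 and 4.09 CPM in cKO and 7.37 and 3.21 CPM in wild type (adjusted p = 0.81).

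Zbtb20, a repressor of liver fetal genes that also acts in plasma cells and the hippocampus, has the longest window of the family at 378 kb. It held 56.9 and 53.2 CPM in cKO, against 55.5 and 55.9 CPM in wild type (log2 fold change -0.02 ± 0.16, adjusted p = 0.972). Per kb it stood at 0.151 and 0.141 in cKO and 0.147 and 0.148 in wild type, so its 633 counts over the 4 libraries went with a low level. The counted window is shorter than the reference gene of 759 kb, and other windows overlap 13.1% of it, so the Zbtb20 level per kb is uncertain. Zbtb7a had 3.06 and 3.50 CPM in cKO and 4.27 and 5.04 CPM in wild type (adjusted p = 0.713). Zbtb17, which encodes the MYC partner MIZ1, was among the low members too, with a positive fold change of 0.31 ± 0.58 on the log2 scale (adjusted p = 0.839).

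**Figure D4:**
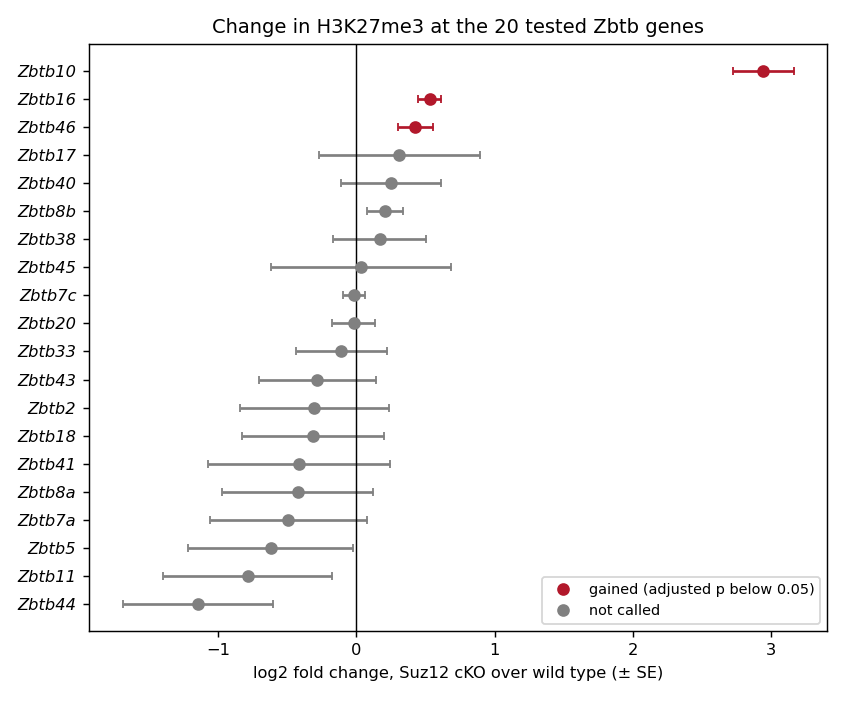
Log2 fold change of Suz12 cKO over wild type with its SE for the 20 Zbtb genes that passed the count filter, gained genes in red and others in grey. Zbtb10 lies near 3, Zbtb16 and Zbtb46 near 0.5, and Zbtb44 is the lowest grey point at -1.15.

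The 22 members below the filter held 0 to 13 counts in a library, and other windows overlapped more than 10% of the window in 18 of them, against 9 of the 20 tested. Summed, they had 106 and 105 counts in the cKO libraries and 81 and 85 in the wild-type libraries, or 31.8 and 29.4 CPM of library totals in cKO and 31.2 and 39.7 in wild type. Of the 21 with any count, the exact 95% interval of the ratio of library shares included 1 for 20. The exception was Zbtb7b, with 4 and 3 counts in cKO and 8 and 6 in wild type, a ratio of 0.343 (0.117 to 0.909 for counting error alone). Fitted without a count filter Zbtb7b had an adjusted p of 0.474 by edgeR, and 0 of these 21 were called or had an unadjusted p below 0.05. Zbtb32, a lymphocyte repressor, had 6 and 4 counts in cKO and 1 and 2 in wild type (ratio 2.29, 0.589 to 12.9), with 58.0% of its window overlapped. Zbtb11os1, wholly inside other windows, had 0 counts in every library, which allows up to 0.901 and 0.841 CPM in cKO and 1.16 and 1.40 CPM in wild type at the limit of 3 counts. Others in this set were Zbtb1, Zbtb3, Zbtb4, Zbtb6, Zbtb9, Zbtb12, Zbtb14, Zbtb21, Zbtb22, Zbtb24, Zbtb25, Zbtb26, Zbtb34, Zbtb37, Zbtb39, Zbtb42, Zbtb48, Zbtb49 and Zbtb8os, for which changes were not detectable at this depth.

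The windows beside the gained members were compared for the same change. The nearest tested windows beside Zbtb10 were those of 4930539M17Rik, 179 kb to its lower side, and C030034L19Rik, 118 kb to its higher side. The window of 4930539M17Rik had 7.64 and 7.30 CPM in cKO, against 9.69 and 9.16 CPM in wild type (adjusted p = 0.709). C030034L19Rik had 65.1 and 66.3 CPM in cKO, against 37.6 and 31.6 CPM in wild type, and was itself called as gained (log2 fold change 0.92 ± 0.17, adjusted p = 6.52e-06), with 40.3% of its window overlapped. Beside Zbtb16, Nnmt, a nicotinamide methyltransferase gene 44.1 kb away, had 43.1 and 35.6 CPM in cKO and 23.7 and 21.5 CPM in wild type (log2 fold change 0.79 ± 0.21, adjusted p = 0.00519). Nnmt was not called by DESeq2 (adjusted p = 0.118), without cKO library 1 (0.160) or without wild-type library 2 (0.0627). On the other side Htr3a, a serotonin receptor gene 63.0 kb away, had 36.1 and 61.0 CPM in cKO and 54.3 and 53.6 CPM in wild type (adjusted p = 0.697). Beside Zbtb46 neither Rtel1 (adjusted p = 0.51) nor Dnajc5 (adjusted p = 0.793) was called, with means of 4.78 CPM for Rtel1 and 3.74 CPM for Dnajc5 in cKO and 7.49 CPM for Rtel1 and 4.74 CPM for Dnajc5 in wild type.

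Relatives and partners of the family were read from lists. Of 7 BTB zinc finger genes with other symbols, 4 were tested, 1 gained and 0 lost. Over all tested genes 4.46% gained and 1.96% lost, and a list of 4 is too short to compare with these shares. The gained gene was Bcl6b, a close relative of Bcl6, with 63.9 and 60.2 CPM in cKO and 45.4 and 31.6 CPM in wild type (log2 fold change 0.67 ± 0.16, adjusted p = 0.00229). It was not called by DESeq2 (adjusted p = 0.0979), without cKO library 1 (0.0694) or without wild-type library 2 (0.187), and 48.8% of its window is overlapped. Hic1, a tumour suppressor gene, stood high in both genotypes, at 102 and 116 CPM in cKO and 112 and 90.2 CPM in wild type (adjusted p = 0.731). Bcl6 itself, the repressor of germinal centre B cells, had 1.53 and 2.34 CPM in cKO and 0.776 and 2.75 in wild type, and was not tested.

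Of 20 corepressor partner genes, 18 were tested, 2 gained and 1 lost, where 6.42% of all tested genes were called in either direction. The list's median log2 fold change was -0.40, beside -0.01 over all tested genes and -0.15 over tested windows below the median level. The list's own median level was low, at 0.110 CPM per kb in cKO and 0.145 in wild type. The called genes Hdac9, Hdac7 and Hdac4 encode class IIa histone deacetylases, as does Hdac5, which was not called (log2 fold change -1.17 ± 0.43, adjusted p = 0.0883) and is named after its value was seen. Tbl1xr1, outside that class, lay nearer the threshold (-0.89 ± 0.31, adjusted p = 0.0661) and is also named after its value was seen. Hdac9 gained most, with 71.2 and 79.7 CPM in cKO and 31.8 and 33.4 CPM in wild type (log2 fold change 1.21 ± 0.16, adjusted p = 2.44e-10). Hdac7 had 294 and 291 CPM in cKO and 248 and 195 CPM in wild type (0.40 ± 0.10, adjusted p = 0.00322). Hdac4 had 19.9 and 12.0 CPM in cKO and 27.9 and 27.5 CPM in wild type (-0.80 ± 0.24, adjusted p = 0.0242). Hdac7 lost its call without cKO library 1 (adjusted p = 0.0998), cKO library 2 (0.117) or wild-type library 2 (0.198), and Hdac4 lost its call without cKO library 2 (0.568), wild-type library 1 (0.118) or wild-type library 2 (0.103). With housekeeping scaling and by DESeq2, Hdac9 alone of these 3 was called (DESeq2 adjusted p = 0.0509 for Hdac7 and 0.279 for Hdac4).

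Of 20 lineage genes tied to Zbtb16, Zbtb46, Zbtb7b and Bcl6, 19 were tested and 0 were called by edgeR or by DESeq2, while 3 had an unadjusted p below 0.05. By edgeR 6.42% of all tested genes were called in either direction. Batf3, which classical dendritic cells need, had the lowest p, with 9.17 and 8.47 CPM in cKO and 3.10 and 4.12 CPM in wild type (log2 fold change 1.29 ± 0.47, adjusted p = 0.0803). Housekeeping scaling brought Batf3 past the threshold (1.56, adjusted p = 0.0403). Runx3, which opposes Zbtb7b in T cell fate, had 995 and 1057 CPM in cKO and 958 and 813 CPM in wild type (0.21 ± 0.08, adjusted p = 0.108), and passed the threshold without wild-type library 1 (adjusted p = 0.00219). Irf4, the third with an unadjusted p below 0.05, had 7.64 and 12.0 CPM in cKO and 2.33 and 8.24 CPM in wild type (0.94 ± 0.43, adjusted p = 0.196), and 1 gene of the list, Irf4, passed without wild-type library 2. Irf4 was named after its values were seen. The list's median log2 fold change was 0.15, beside -0.01 over all tested genes.

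Across the 37 members with a start region, the ratio of observed to expected CpG in the 300 bases had a median of 0.833, against 0.389 over all 27025 genes in the promoter table, each taken at its most upstream listed start. It exceeded 0.6 in 30 members (81.1%) and in 36.5% of all genes. Among tested windows above the 90th percentile of level, the median was 0.593. Across the 36 members with a count and a start region, the ratio and the level had a Spearman correlation of -0.06 (Pearson -0.23 with log2 level), and 0.098 over the 34 outside the 5 most marked, a description over genes that share their libraries. A GAGAG run on either strand (GAGAG or CTCTC, overlaps allowed) was present in 25 of the 37 (67.6%) and in 61.8% of all genes. Zbtb8b and Zbtb46, whose letters are printed above, had ratios of 0.505 and 0.0520, and Zbtb44 and Zbtb18 had 1.03 and 1.03. The Zbtb46 and Zbtb8b starts lie 68.9 kb and 6.15 kb inside the reference gene, so these ratios may not describe the genes' other starts. Zbtb16, Zbtb7c and Zbtb10, also among the 5 most marked, have no start region and are missing from these values.

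**Figure D5:**
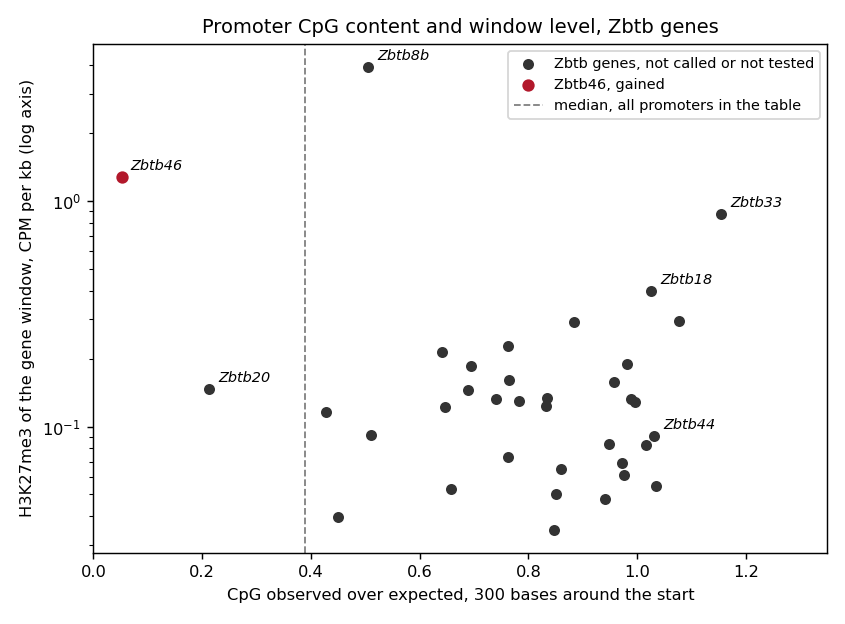
Observed over expected CpG in 300 bases around the start against the H3K27me3 level of the window (CPM per kb, log axis) for 36 Zbtb genes, with Zbtb46 in red and the median of all promoters (0.389) as a dashed line. Most members lie to the right of the line at low level, and Zbtb46 and Zbtb8b lie high at ratios of 0.0520 and 0.505. The starts used for Zbtb46 and Zbtb8b lie inside the reference gene, and the highly marked Zbtb16, Zbtb7c and Zbtb10 have no start region and are not plotted.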

How the data were processed

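The authors deposited raw counts per gene window for 4 libraries, with window lengths in bp. Per the submitters' processing notes, reads were counted with featureCounts on mm10; the sources used here name no aligner, duplicate handling or counting option. The lengths equal the GRCm38.p6 gene span plus 3 kb on each side for 11525 of 27095 genes, 13 of them Zbtb genes. Of 2446 windows inside others 67.1% had 0 counts, against 1.3% of 10808 free windows, so overlapped windows hold fewer counts, and overlaps were estimated from reference spans. Symbols came from the RefSeq table, which matched 25204 IDs (93.0%). Genotypes were compared with edgeR 4.0.16 in R 4.3.3 (filterByExpr, TMM, glmQLFit and glmQLFTest, genotype only, two-sided), fitted on all genes, with Benjamini-Hochberg adjustment over the 16752 tested and calls at an adjusted p below 0.05; adjusted p-values are from this test except where DESeq2 is named. SE is the fold change divided by the square root of F. DESeq2 1.42.0 was an alternative. The test was checked on simulated counts, where 2 of 132 calls were of unchanged genes.

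Named were all called members, the 5 of highest level, the 3 nearest the threshold and 8 with known roles (Zbtb10, Zbtb16, Zbtb46, Zbtb7a, Zbtb7b, Zbtb20, Zbtb32 and Zbtb18), with called and lowest-p genes of the lists and the nearest windows of called or high members; Zbtb17 and Zbtb33 were added after their values were seen. The members, lists and rules were chosen with earlier results of these data known. The labels do not say that the replicates came from separate animals, so p-values measure the spread between these libraries, which may in part be technical. Intervals and limits at 3 counts cover counting error only.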

Additional observations from a re-analysis of the deposited data

How the results depend on the processing

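The 3 Zbtb calls became 1 with housekeeping scaling, and 2 or 3 in every other alternative run, those without a library and the replicate block (3) included. The loss count was 0 in all. Zbtb10 was called in 12 of 12 alternatives, Zbtb16 in 11 and Zbtb46 in 5. Beyond the cases in the report, Zbtb46 missed the threshold with library totals (adjusted p = 0.0526), upper-quartile factors (0.0952) and housekeeping scaling (0.119). Without cKO library 1 or 2, or wild-type library 1 or 2, Zbtb gains numbered 2 to 3 and losses 0, gains over all genes 350 to 738 and losses 76 to 207. These fits assume that the lone library of a genotype varies like the others. Over all genes, 747 gained and 329 lost; upper-quartile factors gave 494 and 519, housekeeping scaling 503 and 24, DESeq2's Wald test 324 and 52, library totals 597 and 475, and the replicate block 733 and 306. Gains made up 69.4% of calls, and 48.8%, 95.4%, 86.2% and 55.7% with upper-quartile factors, housekeeping scaling, DESeq2 and library totals, and 82.2% without cKO library 2. The replicate block changed no call among the Zbtb genes, and same-numbered libraries share only a number (correlation of their deviations 0.008 over 2 pairs). With lengths not shared between windows, 0 in place of 2 members lay above the 90th percentile, because overlapped windows elsewhere in the table then rise. Genes not called in the main comparison changed sign in a few alternatives without passing the threshold: Zbtb7c was at 0.27 and Zbtb20 at 0.26 with housekeeping scaling, Htr3a at 0.17, Ctif at 0.24 and Marcksl1 at 0.10; without a count filter Zbtb7c was at 0.0019 and Zbtb20 at 0.0018. Leaving out 1 library at a time gave log2 fold changes of -0.060 to 0.034 for Zbtb7c, -0.060 to 0.035 for Zbtb20, -0.75 to 0.44 for Zbtb18, -1.50 to 0.20 for Zbtb8a, -0.031 to 0.28 for Hic1, -0.22 to 0.16 for Ctif, -0.62 to 0.035 for Dnajc5, -0.58 to 0.18 for Htr3a and -0.70 to 0.57 for Marcksl1. Ctif and Marcksl1 neighbour Zbtb7c and Zbtb8b. The causes were not tested. With few counts per window, the depth limits most Zbtb genes to large changes.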
